A study of Rattus norvegicus with 20 samples.

Results

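The genes described here handle iron, heme and the remains of bleeding. The rule took every entry of the deposited FPKM table whose gene name was Hmox1, Fth1, Ftl1, Tf, Tfrc, Slc40a1, Cp, Cd163 or Hpx, 9 genes in all, out of 30443 genes in the table. Of these, 8 were found under that name and 7 reached 1 FPKM in at least 1 library, which is the filter that 15210 genes of the whole table passed. FPKM is a fragment number scaled to both transcript length and library size, so levels of different genes can be set side by side. Slc40a1, which encodes the iron exporter ferroportin, was not analysed here. Hpx did not pass the filter and was not tested.

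The libraries came from 4 wild-type adult female Long-Evans rats, an outbred strain, aged about 6 to 8 months. Every animal, controls included, received a unilateral contusion of the cervical cord at level C4, with an impactor set to a displacement of 0.7 mm, and, 2 weeks later, an electrode array in the motor cortex opposite the injury. In 2 stimulated animals current was passed within 1 week, on 5 days that began 3 weeks after the injury. It ran for 5 hours per day at 10 Hz in cycles of 5 minutes on and 2 minutes off. Its strength was 80% of the current that evoked a forelimb movement, and 2 control animals were connected without current. Tissue was taken once this period was over. Total RNA was sequenced from 5 regions of each animal, which made 20 libraries: region 1 was white matter below the implant, region 2 the same tissue on the other side, region 3 cord rostral to the injury, region 4 the lesion and region 5 cord caudal to it. No uninjured or unimplanted animal is among the groups, so each region is set against other regions of injured and implanted animals. The animals were perfused with buffer before dissection, which washes blood out of the vessels.

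Heme that leaves broken red cells is taken up by phagocytes, either as hemoglobin through the receptor CD163 or bound to the plasma protein hemopexin, the product of Hpx. Heme oxygenase 1, the product of Hmox1, opens the heme ring and frees its iron, which ferritin stores in shells built of heavy (Fth1) and light (Ftl1) chains. Transferrin (Tf) carries iron between cells and enters them through the transferrin receptor (Tfrc), while ceruloplasmin (Cp) oxidizes iron as it leaves the cell. In the nervous system oligodendrocytes make much of the transferrin and hold much of the ferritin, astrocytes carry a membrane form of ceruloplasmin, and CD163 marks macrophages at vessels and in the meninges.

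Of the 8 genes found, 5 had an entry among the RefSeq promoters of assembly GRCr8, and Hmox1, Fth1 and Ftl1 had none. The 250 bases before the start of Tf, Cp and Tfrc are printed because these are the carrier, the ferroxidase and the uptake receptor. Below, Tf and Tfrc share an order of regional levels and Cp has another. Capitals mark matches, on either strand, to TATAAA (the TATA box), ACGTGC (a hypoxia response core), TTGCNNAA (a C/EBP-type site) or TGACNNNGC (an antioxidant response element), motifs that were chosen with these sequences in view. Each line runs 5′ to 3′ along the strand of the gene.
Tf: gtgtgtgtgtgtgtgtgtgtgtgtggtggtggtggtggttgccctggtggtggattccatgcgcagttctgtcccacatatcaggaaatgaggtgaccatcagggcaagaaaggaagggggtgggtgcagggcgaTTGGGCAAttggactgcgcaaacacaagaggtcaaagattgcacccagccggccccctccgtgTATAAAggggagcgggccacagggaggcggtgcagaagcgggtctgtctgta
Cp: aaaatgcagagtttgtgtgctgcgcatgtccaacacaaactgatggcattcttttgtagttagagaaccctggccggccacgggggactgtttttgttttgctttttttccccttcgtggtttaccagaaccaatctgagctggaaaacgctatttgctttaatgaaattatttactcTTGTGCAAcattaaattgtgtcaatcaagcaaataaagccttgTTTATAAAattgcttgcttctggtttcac
Tfrc: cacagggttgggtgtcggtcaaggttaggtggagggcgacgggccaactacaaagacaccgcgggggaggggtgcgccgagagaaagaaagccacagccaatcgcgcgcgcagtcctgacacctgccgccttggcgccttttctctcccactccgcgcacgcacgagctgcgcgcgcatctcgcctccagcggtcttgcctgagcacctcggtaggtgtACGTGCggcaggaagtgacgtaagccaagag
The Tf window lies at chr8:112695377-112695626 on the minus strand, that of Cp at chr2:104368420-104368669 on the plus strand and that of Tfrc at chr11:81690319-81690568 on the minus strand. The first base of the TATAAA match was 52 bases before the start in Tf, and in Cp 2 overlapping matches, 1 on each strand, began 29 and 27 bases before it. TATAAA occurs in 12.9% of the 33469 windows of this length. A TTGCNNAA match began 115 bases before the start of Tf and 72 bases before that of Cp, and 9.22% of the windows hold one. Tfrc held neither, and its single match, to ACGTGC, began 31 bases before the start, against 4.82% of windows that hold that motif. TGACNNNGC was in none of the printed windows and is in 10.1% of all, while the window of Cd163 held none of the motifs searched. These are letter matches in a window and were not tested as binding sites.

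FPKM sums of the libraries lay between 191481 and 290718, and between 12497 and 13546 genes reached 1 FPKM or more. No pair of libraries was identical. The paper lists read numbers, mapping rates and RNA integrity for each library. FPKM values do not carry the fragment number behind each gene, so their counting error is unknown and precision rests on the spread between animals. The libraries labelled as white matter stood apart from their label in part: the summed FPKM of 6 oligodendrocyte markers was 1512 to 2943 in region 1 and 708 to 1391 in region 2, against 7403 to 10780 in the cord, and that of 4 neuron markers was 716 to 1385, against 502 to 957 in the cord. They are called white matter below as in the labels. The region 2 library of stimulated animal 2 also stood apart for several of these genes, at 10.6 FPKM of Hmox1 against at most 2.14 in the other 3 libraries of that region and 48.4 FPKM of Cp against at most 3.27. In bulk tissue, fewer cells of a type and less RNA per cell cannot be told apart.

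Ferritin heavy chain was among the most abundant transcripts of these tissues, and transferrin among those of the cord. Fth1 averaged 2125 ± 194, 1913 ± 170 and 1311 ± 166 FPKM (SD, n = 4) in regions 5, 4 and 3, and 619 ± 337 and 368 ± 153 FPKM in regions 1 and 2, and it ranked between 4 and 26 among all genes of the table, depending on the region. Tf averaged 1099 ± 143, 1011 ± 219 and 791 ± 126 FPKM in regions 5, 4 and 3, and 216 ± 117 and 85.7 ± 44.5 FPKM in regions 1 and 2. It ranked between 10 and 13 in the cord regions, but at 85 in region 1 and 355 in region 2. The share of the summed FPKM that Fth1, Ftl1 and Tf took together was highest at the lesion (1.31%) and lowest in region 2 (0.233%). Ftl1 averaged between 56.3 FPKM in region 2 and 281 FPKM in region 4, and the remaining members were lower still. Over the 5 regions Tfrc averaged between 13.9 and 25.2 FPKM, Cp between 14.2 and 42.4, Hmox1 between 3.99 and 17.9, and Cd163 between 1.24 and 3.27 FPKM. The lowest of these means for Cp and Hmox1, both in region 2, rested on stimulated animal 2, and the medians there were 2.93 and 1.88 FPKM. The highest mean of Hmox1, in region 1, rested on the same animal, with a median of 11.2 FPKM. Hpx was listed at the floor of 0.1 FPKM in 14 of 20 libraries and reached at most 0.381 FPKM, in region 3 of control animal 1.

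The 7 tested members followed different orders over the 5 regions. Neighbours in the order of mean FPKM were compared with limma, in the fit of all 20 libraries. For Fth1 the order was region 5, 4, 3, 1 and 2, and of the neighbours only regions 3 and 1 differed (adjusted p = 0.00127). Tf had the same order, with a difference between regions 3 and 1 (adjusted p = 4.06e-05) and between regions 1 and 2 (adjusted p = 0.0213). Tfrc again followed this order, and among its neighbours regions 3 and 1 differed (adjusted p = 0.00219). Ftl1 ran from region 4 to 5, 1, 3 and 2, and of its neighbours regions 3 and 2 differed (adjusted p = 0.0334). Cd163 ran from region 5 to 4, 1, 3 and 2, with a difference between regions 4 and 1 (adjusted p = 0.0247). For Hmox1, with the order 1, 4, 5, 3, 2, and for Cp, with the order 4, 5, 1, 3, 2, no neighbours passed the test. Region 1 came first for Hmox1 through stimulated animal 2 alone, at 43.8 FPKM against 5.64 to 15.2 in the other animals, and on the log2 scale region 1 was below region 4 by a fold change of -0.43 ± 0.55 (adjusted p = 0.527). Of all genes, 47.1% passed between regions 1 and 3, 52.6% between regions 1 and 4 and 56.8% between regions 2 and 3.

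**Figure D1:**
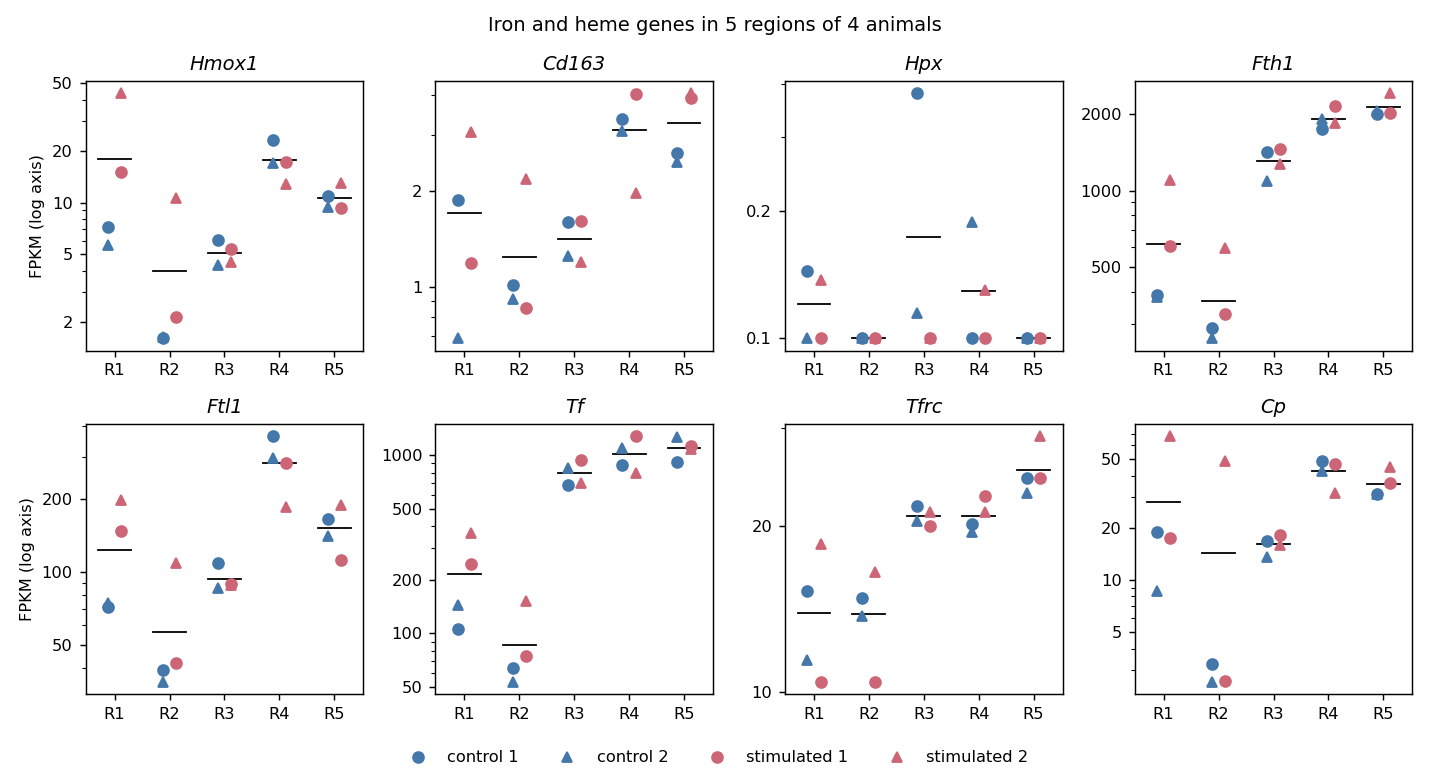
FPKM on a log axis of the 8 genes found in the table, for each of the 20 libraries, by region (R1 and R2 white matter, R3 to R5 cord); symbols mark the 4 animals and black bars the mean of 4. Tf and Tfrc separate white matter from cord without overlap, Hmox1 and Ftl1 are highest among cord regions in R4 on average, and Hpx lies at or near the floor of 0.1 FPKM.

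The cord held more of these transcripts than the white matter. Of the 7 tested members, 6 were lower in white matter and the remaining 1, Hmox1, did not pass (limma in 20 libraries, Benjamini-Hochberg adjusted p = 0.082). Over all genes tested, 72.2% passed this comparison, 47.1% as lower and 25% as higher in white matter, and the median log2 fold change was -1.06 over the 7 members and -0.18 over all genes.

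The carrier Tf had the largest difference among the members. Over the 8 white matter libraries Tf ran from 53.7 to 368 FPKM with a median of 125, and over the 12 cord libraries from 679 to 1274 with a median of 930. No white matter library reached the lowest cord library, a separation in this direction that 16.8% of all genes had. On the log2 scale Tf was lower in white matter by a fold change of -2.94 ± 0.21 (SE, adjusted p = 2.75e-10). Fth1 ran from 262 to 1101 FPKM in white matter and from 1093 to 2413 in the cord, with a log2 fold change of -1.98 ± 0.18 (adjusted p = 8.84e-09), and only region 1 of stimulated animal 2, at 1101 FPKM, reached into the range of the cord. Tfrc, the uptake receptor, was lower without overlap but by less, at 10.5 to 18.5 against 19.5 to 29.0 FPKM and a log2 fold change of -0.70 ± 0.10 (adjusted p = 2.89e-06). Differences for Cp (log2 fold change -1.40 ± 0.45, adjusted p = 0.00954), Ftl1 (-1.06 ± 0.22, adjusted p = 0.000286) and Cd163 (-0.87 ± 0.24, adjusted p = 0.00307) also passed, with overlapping groups.

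The regional difference did not depend on the same animals for every gene. With animals left out in turn, Tf, Fth1, Ftl1 and Tfrc passed each time. Cp lost the call without control animal 1 (adjusted p = 0.0872), control animal 2 (0.109) or stimulated animal 1 (0.105), and Cd163 without stimulated animal 1 (0.0731). Without the 2 white matter libraries of stimulated animal 2, all 7 members passed as lower in white matter, where 76.9% of all genes passed, Hmox1 included (log2 fold change -1.33, adjusted p = 4.01e-06). That fit was chosen after the values were seen. The animal had the highest Hmox1 of both white matter regions, so leaving its libraries out lowers the white matter mean by construction. Beside these results, 6 of 6 oligodendrocyte markers, 4 of 4 tested markers of homeostatic microglia and 6 of 7 red cell markers were lower in white matter, and 3 of 9 phagocyte markers. Red cell transcripts summed to 3.77 to 18.4 FPKM in white matter and 26.7 to 321 FPKM in the cord. The part of these cells in the result was not tested.

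Other genes of iron and heme biology pointed mostly the same way in this comparison. Of 67 such genes listed, 64 were in the table and 52 passed the filter, of which 12 did not pass the test. In white matter 39 of the 52 (75%) were lower and 1 (1.92%) was higher, against 47.1% and 25% of all genes. The largest differences among these were those of the ferric reductase Cybrd1 (log2 fold change -2.33 ± 0.19), the quinone reductase Nqo1 (-1.90 ± 0.12) and the metalloreductase Steap2 (-1.44 ± 0.09). Cybrd1 was low in white matter, at 0.161 to 0.866 FPKM, against 1.34 to 3.23 FPKM in the cord. The gene that was higher was Pgrmc1, a heme-binding membrane protein, at 69.4 against 57.0 FPKM. Of 8 tested genes of heme synthesis, 6 (75%) were lower.

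At the lesion, the enzyme that opens heme, the ferritin light chain and the hemoglobin receptor were higher than in rostral cord of the same animals. Of the 7 tested members Hmox1, Ftl1 and Cd163 passed in region 4 against region 3, and 19.6% of all genes did, 6.78% as higher and 12.8% as lower at the lesion. The median log2 fold change was 1.11 over the 7 members and -0.02 over all genes.

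Hmox1 stood at 23.4, 17.1, 17.4 and 12.9 FPKM in region 4 of control animals 1 and 2 and stimulated animals 1 and 2, and at 6.04, 4.34, 5.38 and 4.47 FPKM in region 3. Every lesion library was above every rostral one, and the ratio within an animal was between 2.90 and 3.95. The log2 fold change was 1.79 ± 0.55 (SE, adjusted p = 0.0298). Ftl1 stood at 363, 295, 282 and 185 FPKM at the lesion and at 108, 85.9, 89.0 and 88.6 FPKM rostrally, in the same order of animals. The groups did not overlap, and the log2 fold change was 1.56 ± 0.34 (adjusted p = 0.0042). Cd163 stood at 3.37, 3.08, 4.03 and 1.97 FPKM at the lesion and at 1.59, 1.24, 1.61 and 1.20 FPKM rostrally. These groups did not overlap either, and the log2 fold change was 1.11 ± 0.37 (adjusted p = 0.0429).

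The other members divided into 2 kinds at the lesion. Cp, at 48.3, 42.6, 46.8 and 31.9 against 16.7, 13.5, 18.1 and 15.9 FPKM, and Fth1, at 1750, 1912, 2147 and 1843 against 1419, 1093, 1459 and 1272 FPKM, were above the rostral libraries without overlap, like 13% of all genes, but did not pass (log2 fold changes 1.39 ± 0.70 and 0.55 ± 0.28, adjusted p = 0.166 for both). Tf and Tfrc overlapped between the regions, with log2 fold changes of 0.34 ± 0.33 and 0.002 ± 0.15. Within animals, Hmox1, Fth1, Ftl1, Tf, Cp and Cd163 were higher at the lesion in 4 of 4, and Tfrc in 2 of 4.

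Because the fit of all libraries takes its spread from white matter as well, the cord was also fitted alone, a choice made after the values were seen. In the 12 cord libraries 31.5% of all genes passed between regions 4 and 3, and 4 members did: Hmox1 (adjusted p = 0.000442), Ftl1 (0.000514), Cd163 (0.0046) and also Cp (0.000458). Fth1 was at an adjusted p of 0.0507. In the fit of all 20 libraries the count of 3 members fell to 1 without control animal 1 or stimulated animal 1, where Ftl1 remained (9.15% of all genes passed without stimulated animal 1), to 0 without control animal 2 (adjusted p = 0.16 for Hmox1, 0.0698 for Ftl1 and 0.16 for Cd163), and was 4 without stimulated animal 2. Over all genes the share also fell without stimulated animal 1, from 19.6% in the fit of all libraries. It is not given for the other fits, so these counts cannot be read as particular to the members. The fold changes moved little: that of Hmox1 stayed between 1.73 and 1.88 and that of Ftl1 between 1.49 and 1.73.

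Phagocyte markers were higher at the lesion as well, and red cell transcripts did not pass. The summed FPKM of 9 phagocyte markers was 188 to 474 at the lesion and 77.8 to 102 rostrally. Of the 9, 4 (Cd68, Msr1, Lyz2 and Trem2) passed as higher. None was at the floor in either region, but Msr1 was near it rostrally, at 0.116 to 0.201 FPKM. Cd68 alone was 13.1 to 45.2 against 1.61 to 3.31 FPKM. The 7 red cell transcripts in the table summed to 26.7 to 321 FPKM at the lesion and 58.7 to 193 rostrally, with overlap, and 0 of 7 passed, Slc4a1 being at the floor in 2 lesion libraries and Ahsp in 1. The 4 markers of perivascular and meningeal macrophages, the cells that CD163 marks, summed to 9.13 to 22.4 against 3.65 to 5.11 FPKM, and 0 of 4 passed. Astrocyte markers summed to 2100 to 2825 against 1387 to 1812 FPKM, mostly from Gfap (mean 1755 against 1037 FPKM). Of the 5 astrocyte markers 2 had positive and 3 negative fitted values, and 0 passed. Of 4 neuron markers 3 were lower at the lesion. The part of these cells in the differences was not tested.

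Caudal cord lay between the other cord regions for some members and level with the lesion for others. Between regions 5 and 3, 0 of 7 members passed in the limma fit of all libraries, where 4.32% of all genes did, 2.77% as higher and 1.55% as lower in region 5. At an unadjusted p under 0.05 there were 2 members, Fth1 and Cd163, and 3763 genes in all. The fitted values ran in 1 direction, with a median log2 fold change of 0.70 over the members and 0.11 over all genes. Cd163 was at 2.63, 2.47, 3.91 and 4.05 FPKM in region 5, all above the rostral libraries (log2 fold change 1.19 ± 0.37, adjusted p = 0.0737). Hmox1, Fth1, Ftl1, Tfrc and Cp were also above the rostral libraries without overlap, as were 20.5% of all genes, and Tf overlapped. In the fit of the 12 cord libraries, where 16.9% of all genes passed, 6 members were higher in region 5: Cp (log2 fold change 1.15 ± 0.15, adjusted p = 0.00291), Hmox1 (1.08 ± 0.18, 0.00644), Cd163 (1.19 ± 0.23, 0.011), Tfrc (0.27 ± 0.07, 0.0313), Fth1 (0.70 ± 0.19, 0.033) and Ftl1 (0.69 ± 0.21, 0.0423). With the animal as a replicate block in that fit the number was 5, without Fth1 (adjusted p = 0.0656), and the share of all genes 16.8%. Without stimulated animal 2 the fit of the remaining libraries called 1 member, Cp (adjusted p = 0.0209), and its share of all genes is not given. Several marker sums were above the rostral ones without overlap: 158 to 231 against 77.8 to 102 FPKM for phagocytes, 132 to 145 against 76.6 to 95.9 for homeostatic microglia, 2378 to 2712 against 1387 to 1812 for astrocytes and 36.8 to 96.5 against 19.6 to 29.3 for fibroblasts and meninges. The astrocyte sum was mostly Gfap (mean 1910 against 1037 FPKM), and of 5 astrocyte markers 3 had positive and 2 negative fitted values. No single marker of these 4 lists passed in the fit of all libraries, and their part in the result was not tested.

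The lesion set against caudal cord gave 0 of 7 members in the limma fit of all libraries, where 7.99% of all genes passed (0.934% as higher and 7.06% as lower at the lesion), and 1 member, Ftl1, had an unadjusted p under 0.05, as 4406 genes did. With the animal as a replicate block in the fit of all libraries the number of members was again 0 and the share of all genes 12.9%. In the fit of the 12 cord libraries, where 16.2% of all genes passed, Ftl1 (log2 fold change 0.87 ± 0.21, adjusted p = 0.0236) and Hmox1 (0.71 ± 0.18, adjusted p = 0.0285) were higher at the lesion and Tfrc was lower (-0.27 ± 0.07, adjusted p = 0.0358). With the animal as a replicate block in that fit, Hmox1 (adjusted p = 0.0451) and Ftl1 (0.0445) passed and Tfrc did not (0.0511), and 7.62% of all genes passed. Ftl1 was at 166, 141, 112 and 190 FPKM in region 5. In 3 of 4 animals it was higher at the lesion, by 1.07 to 1.33 on the log2 scale, and in stimulated animal 2 the values were 185 and 190 FPKM. Without that animal the fit of all remaining libraries called 1 member, Ftl1 (adjusted p = 0.017), and its share of all genes is not given. Hmox1 likewise was higher at the lesion in 3 of 4 animals and level in stimulated animal 2, at 12.9 and 13.1 FPKM. Tfrc was lower at the lesion in 4 of 4 animals, at 20.1, 19.5, 22.6 and 21.2 against 24.4, 22.9, 24.4 and 29.0 FPKM, without overlap, as 16.3% of all genes were. All 9 phagocyte markers had positive fitted values at the lesion against region 5, with 0 of 9 passed and sums of 188 to 474 against 158 to 231 FPKM, and their part was not tested. Fth1, Tf, Cp and Cd163 did not pass in either fit, and the sign of the differences of Fth1, Tf and Cd163 turned with upper-quartile scaling.

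**Figure D2:**
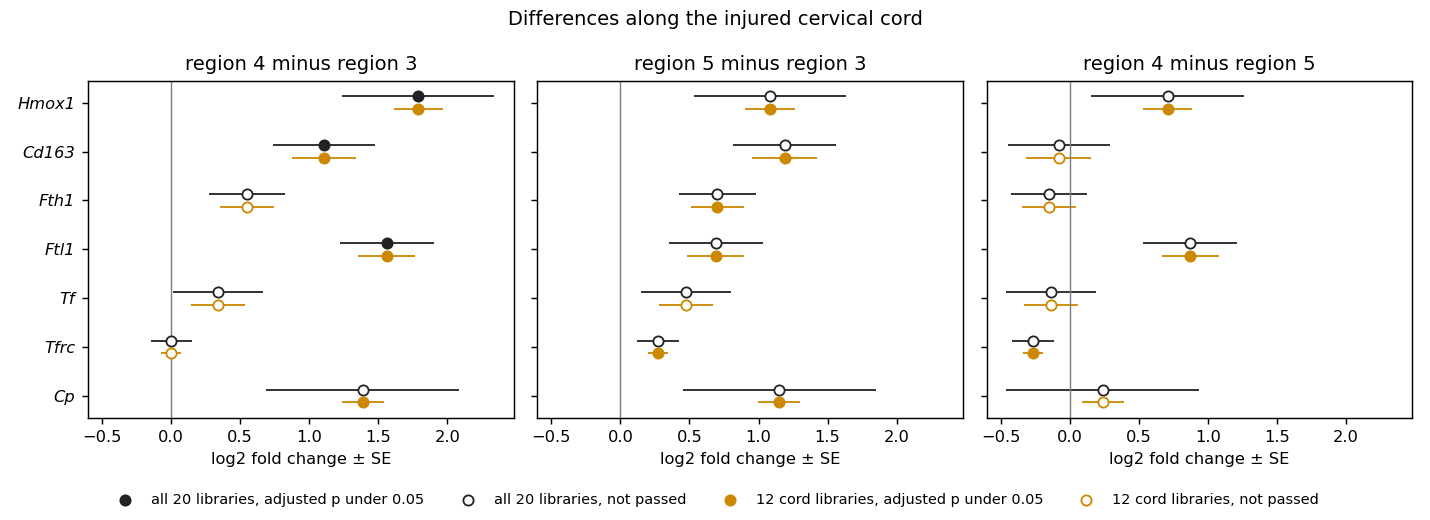
Log2 fold change ± SE of the 7 tested genes between cord regions, 4 libraries each, in the limma fit of all 20 libraries (black) and of the 12 cord libraries (orange); filled points had an adjusted p under 0.05. Hmox1, Ftl1 and Cd163 are filled in both fits for region 4 minus region 3, and the open and filled points differ in their error, not in their position.

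The balance of the ferritin chains differed along the cord. Fth1 divided by Ftl1, both in FPKM, was 13.1, 12.7, 16.4 and 14.3 in region 3 of control animals 1 and 2 and stimulated animals 1 and 2, 4.82, 6.49, 7.61 and 9.96 in region 4, and 12.0, 14.7, 18.1 and 12.7 in region 5. The lesion was below both other cord regions in every animal and without overlap. The lesion mean of 7.22 ± 2.16 (SD, n = 4) was near those of the white matter, 5.05 ± 0.652 in region 1 and 7.02 ± 1.04 in region 2. No test was run on this ratio, which combines the values already compared. The RefSeq table lists 21 further symbols that start with Ftl1 and 6 that start with Fth1, copies or related genes with which short reads could be shared, so the ratio is uncertain to that extent.

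**Figure D3:**
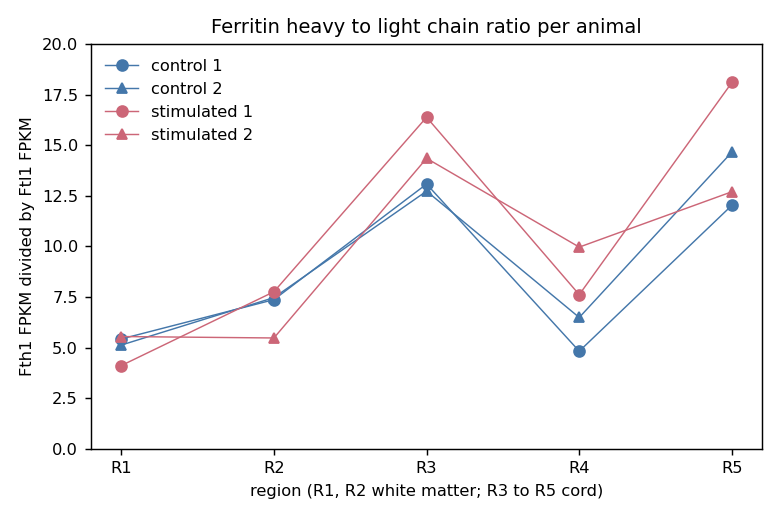
Fth1 FPKM divided by Ftl1 FPKM in each region, with a line per animal. In the cord the ratio is 12.7 to 16.4 in R3, 4.82 to 9.96 in R4 and 12.0 to 18.1 in R5, and all 4 lines dip at R4.

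Other iron and heme genes passed between cord regions at about the share of all genes or below it where the lesion was compared. Between regions 4 and 3, 3 of 52 (5.77%) were higher and 3 (5.77%) lower in the fit of all libraries, against 6.78% and 12.8% of all genes. Higher at the lesion were Flvcr2, a heme and choline transporter (log2 fold change 0.65 ± 0.20), Nqo1 (0.57 ± 0.19) and Lrp1, the receptor for hemopexin-bound heme (0.28 ± 0.09). Lower were Slc22a17, a lipocalin 2 receptor (-0.47 ± 0.11), Steap2 (-0.47 ± 0.14) and Slc25a28, a mitochondrial iron importer (-0.30 ± 0.08). Between regions 5 and 3, 3 of 52 (5.77%) were higher and 0 lower, against 2.77% and 1.55% of all genes: Nqo1 (0.70 ± 0.19), the endosomal ferrireductase Steap3 (0.56 ± 0.15) and Gclm, a subunit of the first enzyme of glutathione synthesis (0.35 ± 0.09). Between regions 4 and 5, 4 of 52 (7.69%) were lower at the lesion, against 7.06% of all genes, among them the lipid peroxidase Gpx4 (-0.38 ± 0.10), Slc22a17 (-0.36 ± 0.11) and the porphyrin transporter Abcb6 (-0.35 ± 0.09). With the animal as a replicate block 8 of 52 passed (15.4%), against 12.9% of all genes. Each gene named in this paragraph lost its call without at least 1 of the 4 animals, and Gpx4, Slc22a17 and Abcb6 lost theirs between regions 4 and 5 under quantile normalization (adjusted p = 0.069, 0.343 and 0.0662).

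Under the implant, heme oxygenase, transferrin and ferritin light chain were higher than in white matter of the other side. Of the 7 tested members 3 passed as higher in region 1 than in region 2 and 0 as lower, where 8.61% of all genes passed, 6.86% as higher and 1.76% as lower. The median log2 fold change was 1.16 over the members and 0.06 over all genes.

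Hmox1 was at 7.21, 5.64, 15.2 and 43.8 FPKM in region 1 of control animals 1 and 2 and stimulated animals 1 and 2, and at 1.60, 1.62, 2.14 and 10.6 FPKM in region 2. The groups overlapped through stimulated animal 2 alone, whose values were the highest of both regions. Within each animal Hmox1 was higher under the implant, by 3.48 to 7.10 times, and the log2 fold change was 2.21 ± 0.55 (SE, adjusted p = 0.0203). Tf was at 106, 144, 245 and 368 FPKM in region 1 and at 63.7, 53.7, 74.3 and 151 FPKM in region 2, a log2 fold change of 1.29 ± 0.33 (adjusted p = 0.0213). Ftl1 was at 71.7, 74.3, 147 and 198 FPKM against 39.2, 35.1, 42.1 and 109 FPKM, a log2 fold change of 1.16 ± 0.34 (adjusted p = 0.0425). Both were higher under the implant in 4 of 4 animals.

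Cp, the ferroxidase, showed how far 1 library moved this comparison. It was at 18.8, 8.64, 17.5 and 67.3 FPKM under the implant and at 3.27, 2.57, 2.58 and 48.4 FPKM on the other side, where stimulated animal 2 stood far above the other 3. The log2 fold change of 1.88 ± 0.70 did not pass (adjusted p = 0.0984), and without the 2 white matter libraries of that animal it was 2.34 ± 0.24 (adjusted p = 1.63e-05). That fit was chosen after the values were seen, and leaving out libraries that stand apart narrows the spread by construction. In that fit 21.9% of all genes passed, and 5 members did: Hmox1, Fth1 (0.62 ± 0.20, adjusted p = 0.0324), Ftl1, Tf and Cp. Leaving out control animal 1, control animal 2 or stimulated animal 1 called 0 members, with adjusted p for Hmox1 of 0.129, 0.105 and 0.292, and without the last of these 0.171% of all genes passed. Tfrc (log2 fold change -0.01 ± 0.15) and Cd163 (0.36 ± 0.37) overlapped between the sides.

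Several cell markers differed between the sides as well. Phagocyte markers summed to 109 to 635 FPKM under the implant and 34.1 to 261 FPKM on the other side, with 4 of 9 higher (Cd68, Msr1, Lyz2 and Trem2), and Msr1 was at the floor in 3 of 4 libraries of region 2. Of 6 oligodendrocyte markers 5 were higher, and of 3 tested markers of fibroblasts and meninges 3 were. Red cell transcripts summed to 4.91 to 14.3 against 3.77 to 18.4 FPKM, with 0 of 7 passed. The part of these cells in the differences was not tested. Among the other iron and heme genes 5 of 52 (9.62%) were higher under the implant and 0 lower, against 6.86% and 1.76% of all genes. With the animal as a replicate block 8 of 52 (15.4%) passed, against 12.2% of all genes. Among the 5 were the ferritin receptor Scara5 (log2 fold change 2.29 ± 0.63), the metal importer Slc39a8 (0.89 ± 0.25) and Ncoa4, which delivers ferritin to lysosomes (0.37 ± 0.11). These 3 also lost their calls without at least 1 of the 4 animals. Scara5 was low, at 0.111 to 0.811 FPKM in region 2, near the floor of 0.1, and 0.406 to 3.84 FPKM in region 1, with overlap.

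Stimulation was the question of the study, and no member passed the test for it in any region. Limma called 0 of 7 members in each of the 5 regions, against 0% of all genes in regions 1 to 4 and 0.0197% in region 5. At an unadjusted p under 0.05 there were 828, 215, 522, 341 and 546 genes in regions 1 to 5. With 2 animals against 2, an exact two-sided permutation test of a single gene cannot go below 0.333.

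Under the implant the fitted differences were positive for all 7 members, and none passed. In region 1 stimulated against control animals had 15.2 and 43.8 against 7.21 and 5.64 FPKM of Hmox1, a log2 fold change of 2.01 ± 0.58 (SE, adjusted p = 0.712). For Cp the log2 fold change was 1.43 ± 0.82, for Tf 1.28 ± 0.30, for Ftl1 1.23 ± 0.19, for Fth1 1.08 ± 0.38, for Cd163 0.75 ± 0.74 and for Tfrc 0.08 ± 0.35. Hmox1, Fth1, Ftl1 and Tf were higher in both stimulated animals than in both controls, as were 21.2% of all genes. Without stimulated animal 2 the log2 fold change in region 1 was 1.25 for Hmox1 and 0.46 for Cp. The same 4 genes stood in this way in region 2, as did 20.2% of all genes there.

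Region 2 rested on a single animal. There Hmox1 was at 2.14 and 10.6 FPKM in stimulated animals 1 and 2 and at 1.60 and 1.62 FPKM in the controls, a log2 fold change of 1.56 ± 0.88 (adjusted p = 0.949). Without stimulated animal 2 it was 0.41, and that of Cp went from 1.95 to -0.17. Without stimulated animal 1, so that the lone stimulated animal was assumed to vary like the controls, Hmox1 (adjusted p = 0.0418) and Cp (0.0283) passed in region 2, as 3.6% of all genes did, and Ftl1 (0.0406) in region 1, as 1.5% did. The phagocyte markers summed to 177 and 635 FPKM in the stimulated animals of region 1, above the 109 to 145 FPKM of the controls. In region 2 they summed to 39.5 and 261 against 34.1 to 42.9 FPKM, so stimulated animal 1 lay within the range of the controls. The part of phagocytes in these values was not tested.

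The 2 sides did not differ in the size of the stimulation difference beyond the spread. Tested within animals, the effect in region 1 minus that in region 2 was between -0.52 ± 0.84 (Cp) and 0.45 ± 0.33 (Hmox1) on the log2 scale. No member passed, with adjusted p of 0.884 or more, and 0% of all genes passed (575 at an unadjusted p under 0.05).

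In the cord no fitted difference of a member with stimulation passed either. Over the 7 members they ran from -0.12 to 0.18 on the log2 scale in region 3, from -0.52 to 0.15 in region 4 and from -0.07 to 0.64 in region 5. At the lesion Ftl1 was below both controls in each stimulated animal, at 282 and 185 against 363 and 295 FPKM (log2 fold change -0.52 ± 0.33), while all 9 phagocyte markers had negative log2 fold changes and summed to 359 and 188 against 474 and 338 FPKM. Tfrc was above the controls in both, at 22.6 and 21.2 against 20.1 and 19.5 FPKM. Caudally Cd163, at 3.91 and 4.05 against 2.63 and 2.47 FPKM (0.64 ± 0.14), and Cp, at 36.2 and 44.7 against 31.4 and 31.4 FPKM (0.36 ± 0.13), were above both controls in each stimulated animal. There 3 markers of fibroblasts and meninges summed to 66.7 and 96.5 FPKM in the stimulated animals against 36.8 and 37.1 in the controls. The part of these cells in the values was not tested. Of all genes 7.69% were below the controls without overlap in region 4, 12.5% were above them there, and 18.5% were above them in region 5. The members named here in regions 4 and 5 did not pass, with a limma adjusted p of 0.982 or more. A p above the threshold does not show that the groups were alike.

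**Figure D4:**
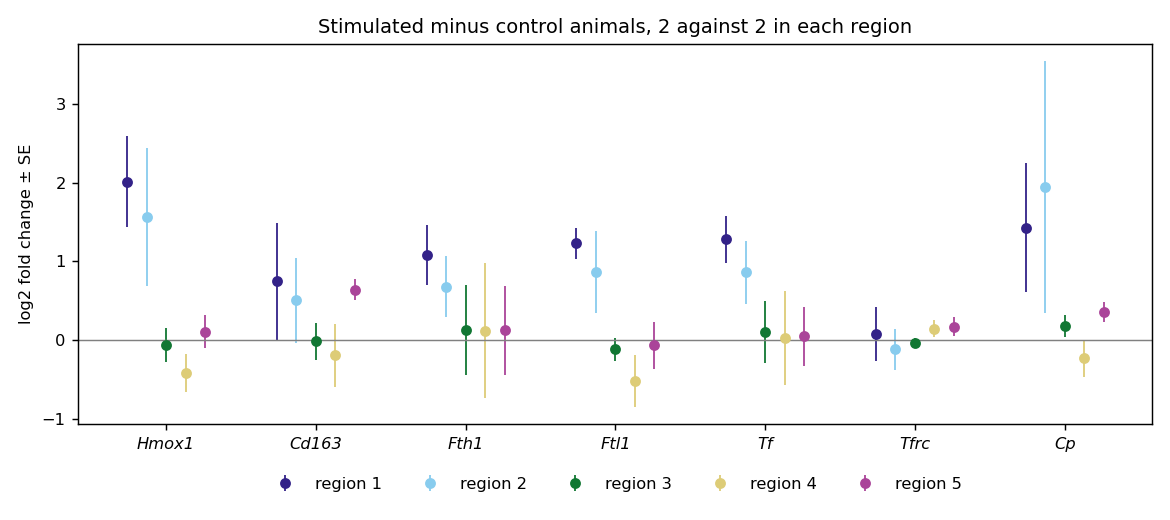
Log2 fold change ± SE between 2 stimulated and 2 control animals for the 7 tested genes in each region. Values above 1 appear in regions 1 and 2 alone, with errors up to 1.60 for Cp in region 2, and no point passed the test.

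The levels of the members could also be described by the genes whose values ran most like theirs over the 20 libraries. By Pearson correlation of log2 FPKM, Hmox1 was most like Rgs1 (0.977), Samsn1 (0.975) and Hlx (0.974). Ftl1 was most like LOC100360087 (0.996) and also ran with the lysosomal enzyme Gusb (0.984), and Cp was most like Timp1 (0.994), Top2a (0.990) and Tspo (0.989). Fth1 ran with Fmnl2 (0.990), Itpkb (0.987) and Plat (0.987), and Tf with Mgst1 (0.993), Clic4 (0.985) and Abca8a (0.985). Tfrc ran with Abca7 (0.967) and the smooth muscle genes Myh11 (0.950) and Tagln (0.940), and Cd163 with the macrophage lectin Clec10a (0.972), Stk40 (0.934) and Aldh1a2 (0.933). The points share animals and tissue, so these values describe the libraries and are no test.

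Within tissues the members differed in their relation to Cd68, a lysosomal marker of phagocytes. Over the 12 cord libraries the correlation with Cd68 was 0.974 for Hmox1, 0.966 for Ftl1, 0.920 for Cp, 0.796 for Cd163, 0.686 for Fth1, 0.499 for Tf and 0.010 for Tfrc. Over the 8 white matter libraries it was 0.969, 0.971, 0.956, 0.698, 0.901, 0.944 and 0.349 in the same order. Hmox1 and the 7 red cell transcripts had correlations between -0.34 (Hba1) and -0.22 (Hbb-b1) in the cord. In white matter they ran from -0.32 (Alas2) to 0.27 (Hbb), with Hba1 at -0.05, and Slc4a1 was at the floor there. Single markers of other cells ran as closely with some members or more so. In white matter the fibroblast gene Lum had 0.987 with Hmox1. In the cord the astrocyte gene Gfap had 0.958 with Fth1 and 0.942 with Cd163. The rest of the astrocyte list was split there: Aqp4 had 0.91 and 0.90, Aldh1l1 0.52 and 0.42, Slc1a2 -0.24 and -0.48, and Slc1a3 -0.70 and -0.58. These are again descriptions over libraries that share animals.

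**Figure D5:**
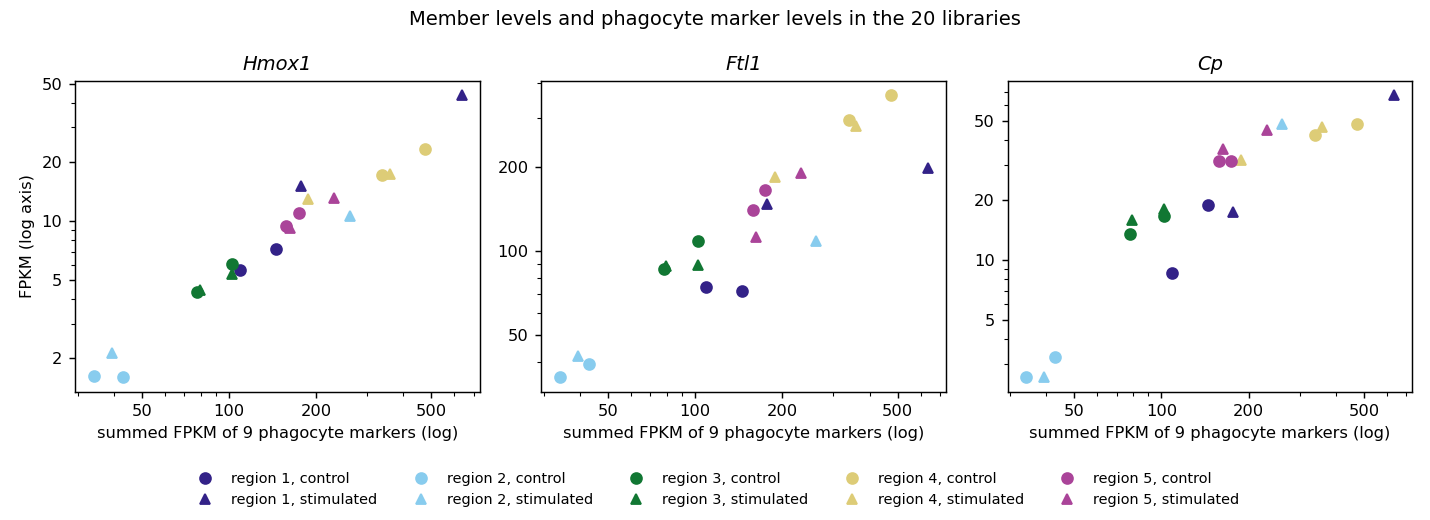
FPKM of Hmox1, Ftl1 and Cp against the summed FPKM of 9 phagocyte markers in the 20 libraries, both axes log, coloured by region with circles for control and triangles for stimulated animals. Lesion libraries (region 4, sums of 188 to 474) lie to the upper right of rostral ones (region 3, sums of 77.8 to 102), and 1 region 2 library, at a sum of 261, stands apart from the others of its region.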

How the data were processed

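RNA was measured in 20 libraries, from 5 regions of each of 4 separate animals, 2 stimulated and 2 control. Per the labels and the study's methods, ribosome-depleted, stranded total RNA was sequenced as paired reads, aligned to the Rnor6 genome with TopHat2 2.1.0 and summarized with Cufflinks 2.2.1, with FastQC and MultiQC 1.6 for quality. The authors deposited FPKM values, with values under 0.1 raised to 0.1. Whether counting used strand is not given in the sources used here, so overlapping and antisense genes cannot be told apart. The paper gives read numbers per library, but FPKM keep none per gene, so the counting error of a value is unknown.

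Values were taken as log2 FPKM and genes with 1 FPKM or more in any library were kept. Regions were compared with limma 3.58.1 (R 4.3.3) in 1 fit of 20 libraries with a mean per region, and stimulated with control animals in 4 libraries per region, with empirical Bayes moderation, a trend and Benjamini-Hochberg adjustment over all 15210 genes kept, at 0.05. The difference in stimulation effect between regions 1 and 2 was fitted to the differences within animals. All regions come from the same 4 animals. Deviations from the mean of each region over these animals were correlated, over genes, between regions of an animal. The correlations were 0.413 to 0.768 for regions 1 and 2, 0.136 to 0.255 for regions 3 and 4, -0.09 to 0.11 for regions 4 and 5 and 0.02 to 0.18 for regions 3 and 5. They include any difference between stimulated and control animals that both regions share. The fit with the animal as a replicate block was an alternative. Others were the value added before the logarithm, quantile and upper-quartile scaling, the filter, the trend, control animals alone and leaving out each animal. The fit of 12 cord libraries and those without the white matter libraries of 1 animal were added after the data were seen.

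Members and gene lists were chosen with earlier results of these data known. Of the other iron and heme genes, the text names at most 3 per direction and comparison, those with the largest fold change among genes past the threshold that averaged 1 FPKM or more in a group. Scripts were tested on simulated data. Figures used Python 3.11.15 and matplotlib 3.10.9. Promoters came from a RefSeq table of assembly GRCr8. Of the genes most like each member, 3 per member were named, except 1 that is not reported here.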

Additional observations from a re-analysis of the deposited data

Results flagged for a closer look

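In each group of 4 libraries from 1 region, the gap from the highest or lowest library to its neighbour was divided by the range. Gap and range were taken on log2 FPKM, and the ratio was set against Dixon's critical value for 4 values. Of 35 such groups 5 passed, and chance gives about 1 in 20 for independent values of 1 normal distribution. The groups share animals and mix stimulated with control libraries, so that rate need not hold here. Stimulated animal 2 was the high library in 4 of the 5. In region 2 its Hmox1 was 10.6 FPKM, against 1.60 to 2.14 in the others (gap over range 0.847), its Ftl1 109 FPKM (108.53), against 35.1 to 42.1 (0.839), and its Cp 48.4 FPKM, against 2.57 to 3.27 (0.918). In region 5 its Fth1 was 2413 FPKM, against 1997 to 2062 in the others (0.832). The fifth was Ftl1 in region 3 of control animal 1, at 108 FPKM (108.47), against 85.9 to 89.0 (0.847).

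For Ftl1 the fitted difference with stimulation was positive in white matter and negative at the lesion, and none of these differences passed (limma adjusted p = 0.712, 0.949 and 1 in regions 1, 2 and 4). The log2 difference between stimulated and control animals was 1.23 in region 1 and 0.865 in region 2, where both stimulated animals were above both controls, and -0.518 in region 4, where both were below. Of all genes 21.2%, 20.2% and 7.69% had groups apart in the same way. Phagocyte markers had positive fitted values in 9 of 9 genes in regions 1 and 2 and in 0 of 9 in region 4, and their part was not tested. The difference between these effects was not tested.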

How the results depend on the processing

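The counts of members that passed depended on which animals entered and on the spread used. With animals left out in turn they ran from 4 to 7 for white matter against cord, 0 to 5 for region 1 against 2, 0 to 4 for region 4 against 3, 0 to 1 for region 4 against 5 and for region 5 against 3, and, for stimulation, 0 to 1 in region 1 and 0 to 2 in region 2. Without the filter, 0 members passed for region 1 against 2 (adjusted p = 0.0652 for Hmox1, 0.0894 for Tf and 0.118 for Ftl1) and 1 for region 4 against 3 (0.0816 for Hmox1 and 0.107 for Cd163), as more genes entered the adjustment. Ftl1 under the implant lost its call without a trend (0.0523) or with 1 added before the logarithm (0.0511). Without a trend Cd163 at the lesion lost its call too (0.0502). Without both white matter libraries of stimulated animal 2, or its region 2 library alone, 5 passed for region 1 against 2. In the 12 cord libraries, 3 passed for region 4 against 5 and 6 for region 5 against 3, and with the animal as a replicate block 2 and 5. Control animals alone gave 1 for region 4 against 5, and quantile normalization 1 for region 5 against 3 (Cd163, 0.0482). The share of all genes that passed also moved with the animals used. For region 1 against 2 it was 8.61% in the main fit and 0.171% without stimulated animal 1. A count given without this share cannot be read as particular to the members.

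Some differences turned sign, and none of these had passed. Under upper-quartile scaling, region 4 against 5 gave log2 fold changes of 0.0074 for Fth1, 0.023 for Tf and 0.078 for Cd163, and Cd163 there was 0.34 in control animals. Tfrc was 0.077 without the region 2 library of stimulated animal 2 (region 1 against 2) and -0.089 in control animals (region 4 against 3). With animals left out in turn, the lowest and highest were -0.073 and 0.071 for Tfrc in region 1 against 2, -0.058 and 0.039 for Tfrc in region 4 against 3, and -0.23 and 0.24 for Cd163 in region 4 against 5. For stimulation they were -0.34 and 0.49 for Tfrc in region 1, -0.45 and 0.21 for Tfrc, -0.17 and 4.06 for Cp and -0.17 and 1.18 for Cd163 in region 2, and -1.66 and 0.63 for Cp in region 1 minus region 2. The cause was not tested. Of the values and counts recomputed under an alternative, 906 kept their direction and side of the threshold (for counts, within 1.5 times), 113 were weaker, 38 stronger and 15 reversed.

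Scaling moved the median log2 fold change of all genes from -0.14 to 0.02 (upper quartile) for region 4 against 5, and from 0.11 to -0.02 (quantile) for region 5 against 3. Calls over all genes, higher and lower, went from 142 and 1074 to 329 and 299 (upper quartile) or 195 and 275 (quantile) in the former, and from 422 and 235 to 419 and 751 or 435 and 674 in the latter. They went from 1043 and 267 to 1316 and 930 or 943 and 841 for region 1 against 2, from 1031 and 1953 to 2115 and 2487 or 1925 and 2917 for region 4 against 3, and from 3808 and 7169 to 4707 and 6605 or 5054 and 6018 for white matter against cord. Stimulated and control animals share replicate numbers only: same-number libraries had correlations between -0.213 and 0.321 over the 5 regions, and with the number as a replicate block 0 members passed in each region (443 genes in region 5, against 3). With crossed pairs it was again 0 members, with 118 genes in region 4. The blocks changed no other call of a member.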
